A study of Homo sapiens with 4 samples.

Results

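The genes described here include the epithelial cadherins *CDH1* (E-cadherin) and *CDH3* (P-cadherin). With them stand the catenins of their complex, *CTNNA1* (α-catenin), *CTNNB1* (β-catenin) and *CTNND1* (p120-catenin). *CTNNBIP1*, *CTNNBL1* and *CTNNAL1* are named for catenins but are not established parts of this complex, and the text counts them among the 6 catenin genes. In all, 8 of the 63677 genes listed in the deposited files are described, and all 8 passed the filter on low counts. These 8 were chosen by their names and roles and from earlier results of these same libraries. The levels and differences of these 8 genes between the lines are therefore given as a description, without a test. RNAseq was performed on FLO-1 parental cells (2 libraries), an established human esophageal adenocarcinoma line, and on FLO-1LM cells (2 libraries), a derivative grown out of a FLO-1 liver metastasis after passage in immunodeficient NSG mice. No drug, transgene or knockdown is named for these libraries, and the paper gives the same harvest protocol for both lines. For imaging in mice the paper put a luciferase-eGFP reporter into both lines, and does not say whether the sequenced cells carried it. FLO-1LM is 1 derived line, so that it stands for 1 metastasis. Separate cultures behind the paired libraries are stated nowhere in the labels, so p-values measure only the spread between these samples, which may be technical. No sequencing date or batch is given, so a batch that followed the line cannot be told apart from the line.

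Classical cadherins are single-pass membrane proteins whose outer domains bind the same cadherin on the next cell in a calcium-dependent way. Inside the cell, p120-catenin binds close to the membrane and keeps the cadherin at the surface, while β-catenin binds the cadherin tail and recruits α-catenin, which connects the complex to actin. β-catenin released from the membrane is degraded or enters the nucleus as the effector of Wnt signaling. Loss of E-cadherin is a hallmark of epithelial-mesenchymal transition and is frequent in invasive carcinoma, including esophageal adenocarcinoma.

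Total counts were 19060310 to 25920336 per library. Levels are given as CPM, a count divided by its library's TMM-scaled total in units of 1e6, and, where genes are compared with each other, as RPKM, which is CPM per kilobase of merged exons. Differences are log2 fold changes of FLO-1LM over parental from edgeR, with standard error (SE). A gene was called when its Benjamini-Hochberg adjusted p in edgeR's quasi-likelihood test was below 0.05. Across the 17143 genes tested, 2.23% were called, 1.83% as lower in FLO-1LM and 0.402% as higher, and the median log2 fold change was 0.0016. An unadjusted p below 0.05, which is given for lists without a called gene, was found for 12.4% of all tested genes and 11.8% of the protein-coding ones, and counts of it near these shares are no result about a list. The epithelial keratins *KRT8*, *KRT18* and *KRT19* and the claudin *CLDN4* were called lower among 8 simple epithelium markers, whose summed level was 482 to 503 CPM in FLO-1LM and 790 to 807 CPM in parental cells. No marker of this list was at 0 in every library, but *EPCAM* and *ESRP1* were close to it. *EPCAM* had 3 and 12 counts in FLO-1LM and 4 and 3 in parental cells, and *ESRP1* 0 and 3 against 3 and 1. Not called were *CLDN3*, with a log2 fold change of −0.083 (SE 0.17), and *CLDN7*, with 0.48 (SE 0.59). Among 9 mesenchymal markers, *COL3A1* and *DCN* were at 0, *VIM* made up most of a summed level of 1595 to 1781 CPM in FLO-1LM and 1583 to 1618 CPM in parental cells, and 0 were called by edgeR, DESeq2 or limma voom, with 0 at an unadjusted p below 0.05. Of the immune, endothelial and hepatocyte markers none was called by any of these tools, 0 had an unadjusted p below 0.05, and the defining *PTPRC* and *ALB* were at 0. The summed levels were 0.971 to 1.17 CPM in FLO-1LM and 0.544 to 0.678 CPM in parental cells for 7 immune markers. They were 24.7 to 29.9 and 26.5 to 33.7 CPM for 4 endothelial markers, nearly all from *CLDN5*, and 13.5 to 14.8 and 16.4 to 18.1 CPM for 8 hepatocyte markers, nearly all from *SERPINA1*. The part of the epithelial marker difference in the cadherin values was not tested, and in bulk RNA fewer cells with a transcript and less of it per cell cannot be told apart.

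The cadherins of the complex were lower in FLO-1LM, while the genes named for catenins were close to their parental level. *CDH1* differed by a log2 fold change of −2.21 (SE 0.11) and *CDH3* by −1.26 (SE 0.23). The catenins of the complex, *CTNNA1*, *CTNNB1* and *CTNND1*, differed by 0.0098, 0.037 and −0.16. All 6 catenin genes, with those outside the complex, ranged from −0.16 to 0.16 with a median of −0.011. In 4 of the 8, *CDH1*, *CDH3*, *CTNND1* and *CTNNBIP1*, both FLO-1LM libraries lay below both parental libraries, as they did for 21.7% of all tested genes. In *CTNNB1* and *CTNNAL1* both lay above, as in 20.9% of all tested genes, and in *CTNNA1* and *CTNNBL1* the lines overlapped. Since the contrast between the lines chose these genes, nothing is read from those counts.

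**Figure D1:**
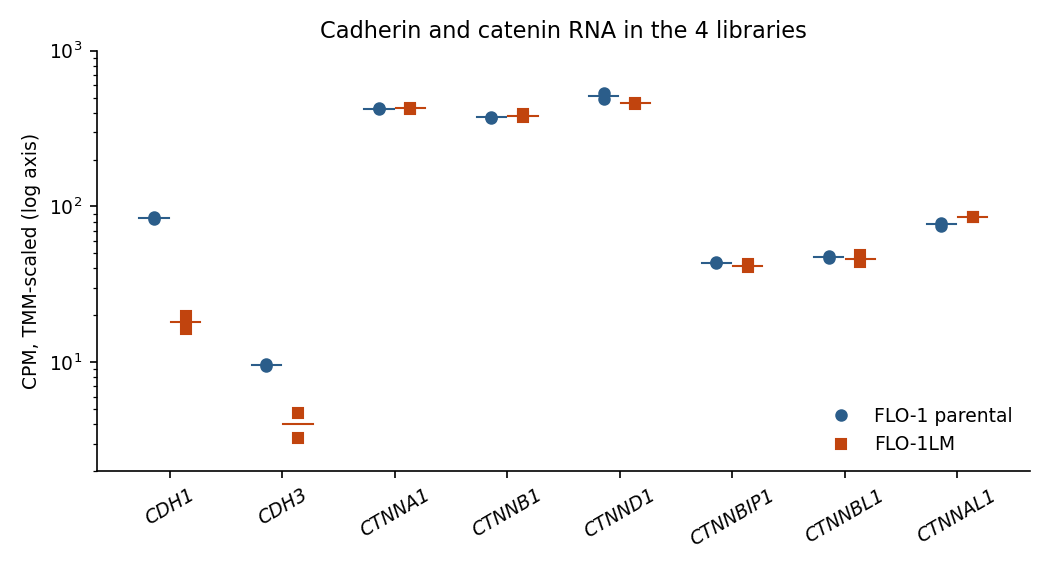
Level of each of the 8 genes in every library, in TMM-scaled CPM on a log axis, with circles for the FLO-1 parental and squares for the FLO-1LM libraries, and a short line at the mean of each pair. The squares of CDH1 (16.4 and 19.9 CPM) and CDH3 (3.28 and 4.70 CPM) stand far below their circles, while the points of each catenin gene lie close together.

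*CDH1* encodes E-cadherin, the main cadherin of simple epithelia. The gene (ENSG00000039068) lies on the plus strand of chromosome 16, at chr16:68771195-68869440 in GRCh37, and its merged exons cover 6076 bases. The FLO-1LM libraries held 365 and 512 counts of it, or 16.4 and 19.9 CPM. The parental libraries held 1894 and 1583 counts, or 85.9 and 82.6 CPM. Both FLO-1LM libraries thus lay far below both parental libraries, and the lowest parental value was above the highest FLO-1LM value by more than the distance between libraries of a line. The means were 18.1 ± 2.48 CPM in FLO-1LM and 84.2 ± 2.38 CPM in parental cells (SD, n = 2), a level 4.63-fold lower in FLO-1LM. The exact 95% Poisson intervals of the counts, which cover counting error only, were 14.7 to 18.2 and 18.2 to 21.7 CPM in FLO-1LM and 82.1 to 89.9 and 78.5 to 86.7 CPM in parental cells. E-cadherin RNA was still present in FLO-1LM, far above the 0.117 to 0.156 CPM that 3 counts amount to in these libraries. Per length, *CDH1* stood above 77.0% of the 16706 tested genes with a known length in parental cells and above 40.8% of them in FLO-1LM.

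*CDH3* encodes P-cadherin, a classical cadherin of basal epithelial layers, and is the neighbor of *CDH1*, at chr16:68670092-68761371 on the plus strand (ENSG00000062038, 6392 bases of merged exons). Only 9823 bases separate its end from the start of *CDH1*. The FLO-1LM libraries held 73 and 121 counts, or 3.28 and 4.70 CPM. The parental libraries held 214 and 182 counts, or 9.71 and 9.49 CPM. The lines did not overlap, but the FLO-1LM libraries differed more from each other than the parental libraries did. The means were 3.99 ± 1.01 CPM in FLO-1LM and 9.60 ± 0.15 CPM in parental cells (SD, n = 2), a level 2.40-fold lower in FLO-1LM. Counting error alone gave exact 95% Poisson intervals of 2.57 to 4.12 and 3.90 to 5.62 CPM in FLO-1LM, which overlap each other, and 8.45 to 11.1 and 8.16 to 10.98 CPM in parental cells. Over 11 alternatives the log2 fold change of *CDH3* ran from −1.55 to −1.03, both ends with 1 library left out. Without the first parental library it was −1.25. P-cadherin RNA was scarce in both lines, above 27.8% of tested genes per length in parental cells and 16.7% in FLO-1LM.

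The library spread of the cadherins was wider in FLO-1LM. The SD was 13.7% of the mean for *CDH1* and 25.2% for *CDH3* in FLO-1LM, against 2.82% and 1.59% in parental cells. Both genes were lower in the first FLO-1LM library than in the second. In the 6 catenin genes the SD was 0.27 to 7.19% of the mean in FLO-1LM and 0.56 to 5.67% in parental cells. With 2 libraries a line, such an SD is itself a rough value.

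*CTNNA1*, the α-catenin that connects the complex to actin filaments, was level between the lines (ENSG00000044115, chr5:137946656-138270723, plus strand). It measured 427.5 and 424.8 CPM in FLO-1LM, from 9524 and 10936 counts. The parental values were 420.6 and 425.9 CPM, from 9271 and 8166 counts. The lines overlapped, with a log2 fold change of 0.0098 (SE 0.069). *CTNNAL1*, an α-catenin-like protein without an established place in the junction, lies at chr9:111704849-111775802 on the minus strand (ENSG00000119326). It measured 85.8 and 85.5 CPM in FLO-1LM (1912 and 2201 counts) and 77.9 and 75.5 CPM in parental cells (1718 and 1447 counts). Both FLO-1LM libraries lay above both parental ones by a small margin, at a log2 fold change of 0.16 (SE 0.083).

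*CTNNB1*, the β-catenin shared by the junction and the Wnt pathway, lies at chr3:41236232-41301587 on the plus strand (ENSG00000168036). It measured 375.0 and 390.8 CPM in FLO-1LM (8354 and 10062 counts) and 374.8 and 371.8 CPM in parental cells (8261 and 7129 counts). The first FLO-1LM library and the first parental library were nearly equal, and the log2 fold change was 0.037 (SE 0.070). *CTNNBIP1* encodes an inhibitor that keeps β-catenin from binding TCF factors and lies at chr1:9908334-9970394 on the minus strand (ENSG00000178585). It measured 42.9 and 40.6 CPM in FLO-1LM (956 and 1046 counts) and 43.1 and 43.7 CPM in parental cells (951 and 838 counts). The FLO-1LM values were the lower ones, by less than the distance between the FLO-1LM libraries for the nearer pair, at a log2 fold change of −0.056 (SE 0.099). *CTNNBL1*, named for its likeness to β-catenin but known as a nuclear protein of the spliceosome, lies at chr20:36322357-36500531 on the plus strand (ENSG00000132792). It measured 43.9 and 48.6 CPM in FLO-1LM (977 and 1250 counts) and 46.7 and 47.8 CPM in parental cells (1029 and 917 counts). The parental libraries lay between the FLO-1LM libraries, and the log2 fold change was −0.031 (SE 0.098).

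*CTNND1*, the p120-catenin that stabilizes cadherins at the membrane, had the lowest fold change of the 6 catenin genes (ENSG00000198561, chr11:57520715-57587018, plus strand). It measured 456.3 and 463.3 CPM in FLO-1LM (10165 and 11928 counts) and 533.2 and 492.1 CPM in parental cells (11753 and 9435 counts). The FLO-1LM libraries were both lower than the parental ones, but the distance between the parental libraries exceeded the gap between the lines. The log2 fold change was −0.16 (SE 0.071).

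**Figure D2:**
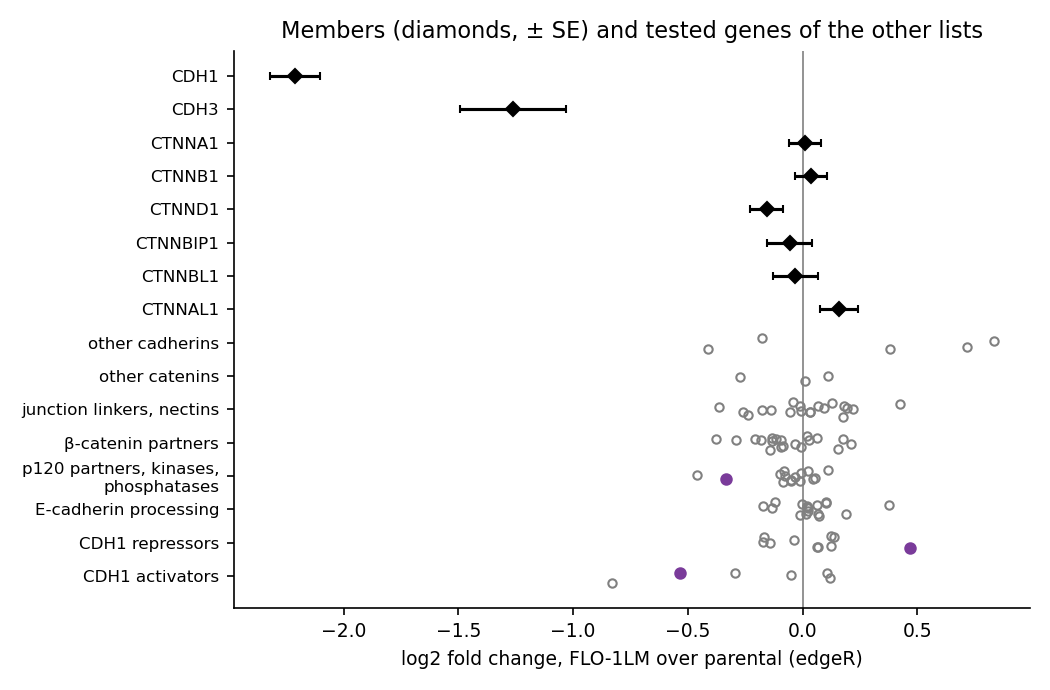
Log2 fold change of FLO-1LM over parental from edgeR, with black diamonds and ± SE bars for the 8 genes and circles for the tested genes of 8 related lists, filled where the adjusted p was below 0.05. CDH1 at −2.21 and CDH3 at −1.26 lie left of every circle, and 3 circles are filled, PTPN1 at −0.33, ZEB2 at 0.47 and KLF4 at −0.54.

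Per length, *CTNNA1*, *CTNNB1*, *CTNND1* and *CTNNAL1* were more abundant than both cadherins in each line. In parental cells the mean RPKM was 47.9 for *CTNNA1*, 33.7 for *CTNND1*, 31.7 for *CTNNB1*, 24.6 for *CTNNAL1*, 13.9 for *CDH1*, 13.005 for *CTNNBIP1*, 11.4 for *CTNNBL1* and 1.502 for *CDH3*. *CTNND1* and *CTNNB1* were neighbors in this order that differed by about the SD of *CTNND1*, which was 1.91 RPKM. In FLO-1LM the mean RPKM was 48.3 for *CTNNA1*, 32.6 for *CTNNB1*, 30.2 for *CTNND1*, 27.4 for *CTNNAL1*, 12.5 for *CTNNBIP1*, 11.1 for *CTNNBL1*, 2.98 for *CDH1* and 0.62 for *CDH3*. *CDH1* thus moved from the fifth to the seventh place of 8, below both *CTNNBIP1* and *CTNNBL1*. The order of *CTNND1* against *CTNNB1* in parental cells, and of *CTNNBIP1* against *CTNNBL1* in both lines, turned when the length of the longest transcript replaced merged exons, so these pairs cannot be ranked here.

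The ratio of α-catenin to β-catenin RNA overlapped between the lines, while that of β-catenin to cadherin RNA was higher in FLO-1LM. On the RPKM scale, *CTNNA1* over *CTNNB1* was 1.52 and 1.45 in FLO-1LM and 1.49 and 1.53 in parental cells, which overlap. *CTNND1* over *CTNNB1* was 0.941 and 0.916 in FLO-1LM and 1.10 and 1.02 in parental cells. *CTNNB1* over the summed RPKM of 27 cadherin genes was 3.18 and 2.82 in FLO-1LM and 1.37 and 1.36 in parental cells. This difference follows mainly from the lower *CDH1* beside a level *CTNNB1*, and is no separate result. The sum was not limited to cadherins that bind β-catenin. *CDH1* over *CDH3* was 5.26 and 4.45 in FLO-1LM and 9.31 and 9.15 in parental cells. These are ratios of RNA levels, and these libraries give no protein level. The paper measured E-cadherin protein in both lines and reported it as reduced in FLO-1LM.

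Among all 27 cadherin genes examined, the make-up of the RNA differed between the lines. *CDH1* took 26.9% and 27.8% of the summed RPKM in FLO-1LM and 60.6% and 58.4% in parental cells. *CDH24*, a type II cadherin, took 59.7% and 53.2% in FLO-1LM and 29.4% and 30.2% in parental cells. The share of *CDH3* was 5.11% and 6.23% in FLO-1LM and 6.51% and 6.39% in parental cells, with a mean of 5.67% ± 0.80 against 6.45% ± 0.089 (SD, n = 2). The larger share of *CDH24* came with a level that was not called different: it had 500 and 606 counts in FLO-1LM and 566 and 504 in parental cells, with a log2 fold change of −0.18 (SE 0.12, edgeR adjusted p = 0.64). The sum itself was 10.04 and 11.8 RPKM in FLO-1LM and 23.3 RPKM in each parental library. N-cadherin (*CDH2*), which often takes the place of E-cadherin in mesenchymal cells, was at 0 counts in all 4 libraries. A count of 0 does not exclude a low level, such as the 0.117 to 0.156 CPM that 3 counts amount to. By western blot the paper reported raised N-cadherin protein in FLO-1 cells among its esophageal cancer lines. The reason for this difference between RNA and protein was not tested.

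**Figure D3:**
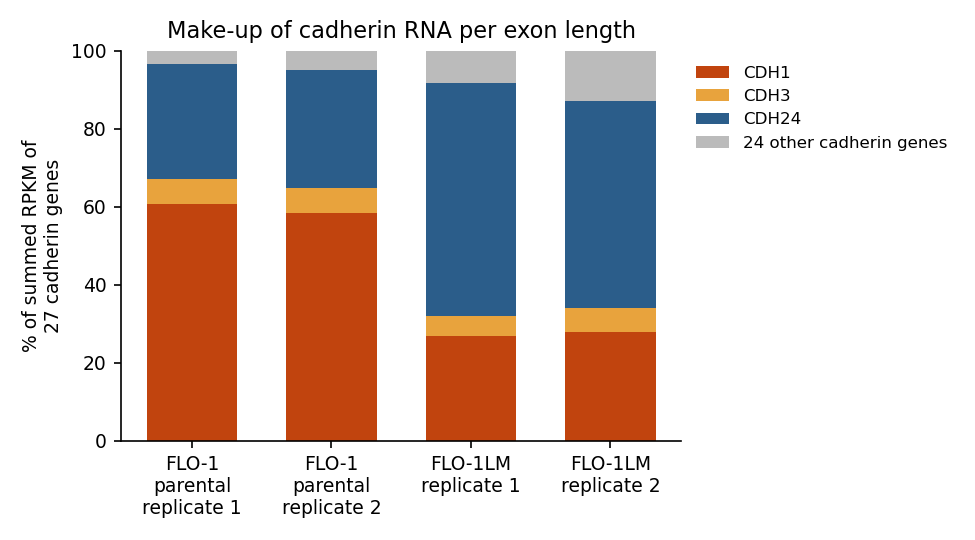
Share of each cadherin gene in the summed RPKM of 27 cadherin genes, in percent, stacked per library. CDH1 fills 60.6% and 58.4% of the parental bars and 26.9% and 27.8% of the FLO-1LM bars, where CDH24 takes the largest share.

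Of the 25 other cadherin genes, 11 were at 0 in every library and 5 were tested. None of the 5 was called by edgeR, DESeq2 or limma voom, and 0 had an unadjusted p below 0.05. Their median log2 fold change was 0.38, resting on low counts, as in *CDHR3* with −0.41 (SE 0.35, adjusted p = 0.72, edgeR). *CDH26* is an example of how thin these counts are, with 11 and 62 counts in FLO-1LM and 8 and 25 in parental cells.

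Of 6 other catenin-family genes, 3 were tested and *CTNNA2*, *CTNNA3* and *CTNND2*, known from neural and muscle tissue, were at 0 in all libraries. Plakoglobin (*JUP*), which can replace β-catenin at the junction and also sits in desmosomes, had 1853 and 2150 counts in FLO-1LM and 2231 and 1926 in parental cells. Its mean was 83.3 CPM in FLO-1LM against 100.8 CPM in parental cells, a log2 fold change of −0.27 (SE 0.080) that missed the threshold (edgeR adjusted p = 0.096). The p120 relatives *ARVCF* and *PKP4* had log2 fold changes of 0.11 (SE 0.099) and 0.012 (SE 0.085). None of the 3 was called by edgeR, DESeq2 or limma voom, and 1 had an unadjusted p below 0.05.

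The proteins that tie the complex to actin, and the nectins that cooperate with it, gave no called gene. Of 20 genes 19 were tested, 9 with a log2 fold change below 0 and 10 above, with a median of 0.032. No gene was called by edgeR, DESeq2 or limma voom, while 3 of 19 had an unadjusted p below 0.05, beside 12.4% of all tested genes. The actin crosslinker *ACTN4* had a log2 fold change of −0.14 (SE 0.071), vinculin (*VCL*), which strengthens α-catenin under tension, 0.066 (SE 0.072), and the actin elongation factor *ENAH* −0.010 (SE 0.072). The value farthest from 0 in this list was that of *NECTIN3*, at 0.42 (SE 0.23, edgeR adjusted p = 0.48).

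Among 20 genes that degrade β-catenin or act with it in the nucleus, 19 were tested and none was called by edgeR, DESeq2 or limma voom, with 2 at an unadjusted p below 0.05. The median log2 fold change was −0.093, with 13 values below 0 and 6 above. The coactivators *BCL9L* and *EP300* had −0.13 (SE 0.073) and −0.21 (SE 0.083), and the chromatin remodeler *CHD8*, a negative regulator of β-catenin, 0.064 (SE 0.082). *TCF7L1*, a TCF factor that acts largely as a repressor, had −0.38 (SE 0.14, edgeR adjusted p = 0.23).

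Of 16 partners of p120-catenin, kinases and phosphatases of the complex, 15 were tested and 1 was called, beside 2.23% of all genes tested. A single call in so short a list is no result about the list. *PTPN1*, the phosphatase PTP1B that binds cadherin tails and removes phosphate from β-catenin, fell in FLO-1LM. It had 1521 and 1834 counts in FLO-1LM and 1936 and 1687 in parental cells, or 69.8 against 87.9 CPM on average, a log2 fold change of −0.33 (SE 0.084, edgeR adjusted p = 0.043). The call was lost without either parental library. The actin regulators *RHOA* and *RAC1* had −0.083 (SE 0.066) and 0.053 (SE 0.082), the junctional phosphatase *PTPN14* −0.032 (SE 0.082), and *PTPN6* −0.46 (SE 0.21, edgeR adjusted p = 0.38). The median of the 15 was −0.052.

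All 17 genes for E-cadherin processing, trafficking and turnover were tested. None was called by edgeR, DESeq2 or limma voom, 2 had an unadjusted p below 0.05, and the median log2 fold change was 0.023. *FURIN*, which cleaves the E-cadherin precursor, had −0.17 (SE 0.078), the shedding protease *ADAM10* 0.017 (SE 0.077), and the γ-secretase subunit *APH1A* 0.067 (SE 0.074). *AP1M2*, an epithelial adaptor subunit for basolateral sorting, had 0.38 (SE 0.20, edgeR adjusted p = 0.46).

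Of 18 known transcriptional repressors of *CDH1* and their corepressors, 10 were tested and 1 was called, beside 2.23% of all genes tested. Nothing is read about the list from a single call. *ZEB2* rose in FLO-1LM, with 689 and 781 counts against 505 and 408 in parental cells, or 30.6 against 22.1 CPM on average. The log2 fold change was 0.47 (SE 0.12), with an edgeR adjusted p of 0.046, just inside the threshold. It was not called by DESeq2 (adjusted p = 0.082), limma voom (adjusted p = 0.054), with library totals only (adjusted p = 0.066), with at least 10 counts in every library (adjusted p = 0.054), or without either parental library. Its relative *ZEB1* had a log2 fold change of 0.14 (SE 0.091) and *SNAI1* 0.062 (SE 0.32), neither called. Both are named here after their values were seen. The paper, which also used qRT-PCR and western blots, reported *SNAI1*, *ZEB1* and *ZEB2* as higher in FLO-1LM than in parental cells. *SNAI2* had 9 counts in the second FLO-1LM library and 0 in the other libraries, and *TWIST1* and *TWIST2* were at 0 in all 4. By qRT-PCR the paper reported a rise of *SNAI2* and *TWIST1* after E-cadherin knockdown in parental cells, a condition absent from these libraries. The corepressor subunits *HDAC1*, *HDAC2* and *SIN3A* had −0.17 (SE 0.068), 0.12 (SE 0.073) and −0.035 (SE 0.077). The median of the 10 was 0.065.

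Of 12 activators of *CDH1* or of epithelial genes at large, 6 were tested and 1 was called, beside 2.23% of all genes tested. Again nothing is read about the list from a single call. *KLF4*, a zinc-finger factor of epithelial differentiation that binds the *CDH1* promoter, fell in FLO-1LM. It had 830 counts in each FLO-1LM library and 1133 and 943 in the parental libraries, or 34.7 against 50.3 CPM on average. The log2 fold change was −0.54 (SE 0.10, edgeR adjusted p = 0.0085), and the call was lost without either parental library. The epithelial ETS factor *ELF3* had 80 and 74 counts against 134 and 103, a log2 fold change of −0.83 (SE 0.26) that missed the threshold (edgeR adjusted p = 0.14). *SP1*, *RB1* and *TFAP2A* had −0.051 (SE 0.078), 0.11 (SE 0.086) and 0.12 (SE 0.084), and *GRHL2* and *OVOL2* were at 0 in all libraries. The median of the 6 was −0.17.

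The tested genes around *CDH3* and *CDH1* were, with 1 exception, not called. Of 104 annotated genes whose start lies within 1000 kb of the pair, 48 were tested, with a median log2 fold change of 0.0050. Of these, 1 was called lower and 0 higher, beside 2.23% called over all genes tested. A count this near that share is no result about the neighbors. Of the 41 protein-coding ones tested, 19 had a value below 0 and 22 above, the range was −0.52 to 0.31, and none was called by edgeR, DESeq2 or limma voom, with 5 at an unadjusted p below 0.05, beside 11.8% of all protein-coding genes tested. Inside the span of *CDH3* lie the tested pseudogenes ENSG00000260860, with 0.25 (SE 0.64), and *HSPE1P5*, with 0.91 (SE 0.71), neither called. The nearest tested genes outside the interval from *CDH3* to *CDH1* were *ZFP90*, a zinc-finger gene at −207 kb from the *CDH1* start with 0.15 (SE 0.14, edgeR adjusted p = 0.75), and *TANGO6*, at 106 kb with −0.27 (SE 0.11, edgeR adjusted p = 0.32). The called gene was the long noncoding RNA ENSG00000262160 (chr16:68259872-68263048, minus strand), at −511 kb from the *CDH1* start. It had 24 and 14 counts in FLO-1LM and 76 and 75 in parental cells, a log2 fold change of −2.19 (SE 0.42, edgeR adjusted p = 0.0079), and was not called without either parental library. It lies opposite the end of *NFATC3* on the plus strand, whose log2 fold change was 0.012 (SE 0.11). It also overlaps the noncoding ENSG00000263276 on the plus strand, with 11 and 1 counts in FLO-1LM and 21 and 7 in parental cells (−1.35, SE 0.92, not called), and the splicing factor gene *ESRP2* on its own strand, with −0.092 (SE 0.24, not called). The strand setting of the counting is not given, so reads of the noncoding gene and of these overlapping genes cannot be told apart.

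**Figure D4:**
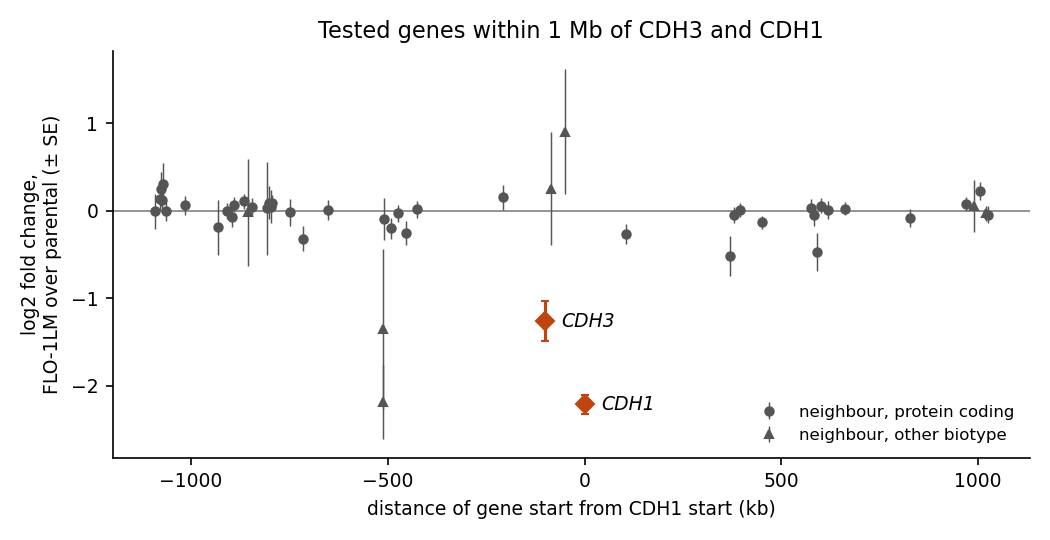
Log2 fold change (± SE, edgeR) of the 48 tested genes within 1000 kb of CDH3 and CDH1 against the distance of their start from the CDH1 start in kb, with circles for protein-coding and triangles for other genes, and diamonds for CDH3 and CDH1. The protein-coding neighbors lie between −0.52 and 0.31, and the lowest triangle, at −511 kb, is ENSG00000262160.

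The genes most like *CDH1* across the 4 libraries were ranked by the root mean square distance of log2 CPM, centered on each gene's own mean, among 11865 protein-coding genes with a mean of at least 1 CPM. With 4 points of 2 lines, this measure mainly reads the size of the difference between the lines. The nearest was *ATP6V1C2*, a subunit of the vacuolar proton pump, at a distance of 0.105. It had 50 and 71 counts in FLO-1LM and 240 and 183 in parental cells. *ZACN* (0.296), *FLJ00418* (0.298), *LRRC38* (0.322) and *AL109927.1* (0.352) followed at a wider distance, and *CDH3* was in place 13 (0.474). The genes most like *CDH3* were *SBSPON* (0.0621), the extracellular protease *ADAMTS15* (0.0894), *C4orf36* (0.129), the transcriptional coactivator *CITED4* (0.131) and the hemoglobin gene *HBA2* (0.137), with *CDH1* in place 330. For *SBSPON* the counts were 51 and 83 in FLO-1LM and 137 and 131 in parental cells. As in *CDH3*, the first FLO-1LM library was the lowest. Several genes of both rankings held few counts, so that counting error adds to their distances. *AL109927.1* had 7 and 18 counts in FLO-1LM and 43 and 31 in parental cells, and *HBA2* 13 and 24 against 35 and 38.

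The genes in the files that overlap exons of these 8 held few counts. Opposite the *CDH1* exons lies the noncoding ENSG00000260798, over 347 bases, with 0 and 1 counts in FLO-1LM and 5 and 18 in parental cells. Opposite *CDH3* lies *CDH3-AS1*, with 2 counts in the first parental library and 0 elsewhere. *CTNNA1-AS1* and *LRRTM2*, opposite *CTNNA1*, had 13 and 0 counts in FLO-1LM with 2 and 1 in parental cells, and 0 in all libraries. ENSG00000254732 shares 1926 of the 15212 exon bases of *CTNND1* on the same strand, with 1, 9, 8 and 7 counts in the FLO-1LM and then the parental libraries, and the annotation places ENSG00000288534 over 5952 of them on the same strand, for which no count was analysed here. ENSG00000223989, opposite *CTNNBIP1*, had 5 counts in the second parental library only. The processed pseudogene *CTNNA1P1* had 189 and 254 counts in FLO-1LM and 186 and 156 in parental cells, which are few beside the 8166 to 10936 counts of *CTNNA1*. How reads with several matches were counted is not given in the sources used here.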

How the data were processed

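Total RNA of FLO-1LM and FLO-1 parental cells was sequenced from directional libraries by the authors, who used bcl2fastq 2.17 and Trimmomatic 0.30, per the labels, and mapped reads to GRCh37. The aligner, the counting program, its strand setting and any pooling are not given in the sources used here. The deposited values are raw read counts per Ensembl gene, not normalized. The lines were taken from the labels, and replicate numbers follow sample order and pair nothing. The members and gene lists were chosen with earlier results of these data known. In R 4.3.3, genes were kept with filterByExpr (minimum count 10, minimum total 15), scaled by TMM and tested with edgeR 4.0.16 (glmQLFit, glmQLFTest) on all 4 libraries, the common biological coefficient of variation being 0.090. No permutation test of single genes is useful with 2 libraries a line. CPM and RPKM were computed here from the counts, and lengths, positions and strands come from a GENCODE annotation mapped to GRCh37, matched by gene ID. From each list the text names every called gene, the 3 tested genes with the highest mean CPM and the one with the largest absolute fold change, always *CDH2* and *JUP*, and for the neighbors every called gene and the nearest tested gene on each side. The marker *PECAM1* was not matched and is not analysed here. Alternatives were DESeq2 1.42.0, limma voom (limma 3.58.1), RLE factors, library totals, no filter, at least 10 counts in every library, no mitochondrial genes, and each library left out. A longest-transcript length for member RPKM was added after the data were seen. Scripts were tested on simulated data.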

Additional observations from a re-analysis of the deposited data

How the results depend on the processing

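Over 11 alternatives the log2 fold change of *CDH1* ran from −2.36 to −2.08 and that of *CDH3* from −1.55 to −1.03, both ends with 1 library left out. These are descriptions, since both genes were chosen on this contrast. Without the first parental library the log2 fold change of *CDH3* was −1.25. The sign of a catenin value turned in *CTNNA1* with library totals only (−0.021) and in *CTNNBL1* when 1 library was left out (−0.11 to 0.039). The number of genes called was 577 without a filter and 116 to 1052 with 1 library left out, where the spread rests on the pair left whole, being 1052 and 967 without the first and second FLO-1LM library and 116 and 139 without the first and second parental one. With 1 library left out the calls numbered 0 to 1 for other cadherins, 0 to 3 for junction linkers and nectins, 0 to 1 for β-catenin partners, 0 to 2 for p120-catenin partners, 0 to 1 for *CDH1* repressors, 0 to 2 for *CDH1* activators and 0 to 1 for chromosome 16 neighbors. Repressors gave 0 calls with DESeq2, library totals only, at least 10 counts in every library, and limma voom, by the loss of *ZEB2*. With library totals only, *PKP4* was −0.019 and *ADAM10* −0.014. The sign also turned when 1 library was left out for *CDH26* (−0.72 to 1.99), *PKP4* (−0.0084 to 0.034), *ARVCF* (−0.014 to 0.23), *VCL* (−0.0086 to 0.14), *ENAH* (−0.049 to 0.029), *RAC1* (−0.073 to 0.17), *PTPN14* (−0.12 to 0.067), *ADAM10* (−0.037 to 0.075), *SP1* (−0.13 to 0.032) and *ZFP90* (−0.083 to 0.35), none of which was called in the fit on 4 libraries, and the cause was not tested. With the longest-transcript length, the share of summed cadherin RPKM in FLO-1LM and parental cells was 29.6% and 61.8% for *CDH1*, 51.1% and 25.8% for *CDH24* and 6.97% and 7.60% for *CDH3*, and the member RPKM was higher throughout, as for *CTNNA1* (111 and 110). Counts as low as those of *CDH26* leave standard errors too wide for small differences, and the 2 libraries a line limit every spread given.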
